A study of Mus musculus with 30 samples.

Results

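SMC3 is one of the paired ATPase arms of cohesin, and its binding regions in NIH3T3 cells that carried an empty vector were set against those in NIH3T3 cells that expressed BORIS. NIH3T3 is an immortalized line of mouse embryonic fibroblasts. The empty-vector cells (NIH3T3+EV) carried a control CpG-free plasmid that expresses beta-galactosidase, and the BORIS cells (NIH3T3+BORIS) stably expressed BORIS from a CpG-free plasmid and were those of a single clone, clone 2. The species of the BORIS sequence on that plasmid was not given in the sources used here. Chromatin of both lines was fixed with 1% formaldehyde for 10 min, sheared to fragments of 200 to 600 bp and precipitated with 5 μg of antibody. The SMC3 lists were taken whole from chromosomes 1 to 19, which gave 98604 regions in empty-vector cells and 105041 in BORIS cells, 203645 of the 624917 regions in the 8 peak lists of the series at hand. A region counted as called in both lines when at least 1 bp of it was also in the other line's SMC3 list, and otherwise as BORIS-only or empty-vector-only. The SMC1 and RAD21 lists of the same lines served as the landmarks against which the SMC3 regions were placed.

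Cohesin is a ring in which SMC1 and SMC3 pair through their hinges and RAD21 closes the gap between their ATPase heads. It holds sister chromatids together, extrudes chromatin loops, and in interphase gathers where CTCF stops its movement along the fibre. BORIS (CTCFL) is the paralog of CTCF, normally made in the testis, with a zinc-finger array much like that of CTCF and different ends. A region called with an SMC3 antibody is therefore usually one where SMC1 and RAD21 antibodies also enrich DNA, and an SMC3 region away from both is unusual for the complex.

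BORIS itself was not measured in the lists analysed here, so its presence in the labelled cells was not checked. Each line had 1 SMC3 library, so no difference between the lines could be compared with the spread between replicates, and no test was made. The 95% intervals that follow are exact binomial (Clopper-Pearson) intervals or intervals derived from them. They cover counting error only, and neighbouring regions are not independent. Read totals were not stated. The lowest background rate at the summits, divided by the width of the narrowest region, stood in for depth. This implied depth was 8.79 fragments per kb in empty-vector cells and 8.24 in BORIS cells, a ratio of 0.938 in BORIS relative to empty-vector cells. Coordinates are those of the lists, in build mm9, and no gene was assigned to any region because no annotation of that build was at hand.

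The BORIS cells had 6437 more SMC3 regions than the empty-vector cells. This net difference was made up of 6871 more regions confined to 1 line while the number that overlapped the other line fell by 434, the second term arising where 1 region of a line faced several of the other. BORIS-only regions numbered 28014, or 26.7% (26.4 to 26.9) of the BORIS list. Empty-vector-only regions numbered 21143, or 21.4% (21.2 to 21.7) of the empty-vector list. The ratio of the counts was 1.32 (1.30 to 1.35). It was 2.14 among one-line regions with a −log10 q of 10 or more, and 1.04 when both lists were cut to 98604 regions, which makes the counts nearly equal by construction. The regions of the BORIS list covered 31.0 Mb and those of the empty-vector list 29.0 Mb. Of the 1.94 Mb difference, 1.27 Mb lay in regions confined to 1 line and 0.669 Mb in regions called in both.

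SMC1 and RAD21 differed between the same lines in the other direction. The length of the SMC1 list fell by 3913 regions from empty-vector to BORIS cells and that of the RAD21 list fell by 2133. The ratio of BORIS-only to empty-vector-only regions was 0.812 (0.798 to 0.827) for SMC1 and 0.873 (0.855 to 0.891) for RAD21, so of the 3 subunits SMC3 was the one whose list was longer in the BORIS cells. The implied depth and the typical pileup were both lower in the BORIS SMC3 library. The implied depth rests on the background rate, whose control was not given, and what either had to do with list length was not tested. The pileup, the number of fragments over the summit, had a median of 21 in empty-vector cells and 19 in BORIS cells.

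How often a region was called in the other line followed its strength. Each list was divided by −log10 p into 10 classes of equal size, from class 1, the weakest, to class 10. In class 1 of the empty-vector list 42.2% (41.2 to 43.2) of regions were called in BORIS cells, and in class 10 all 9860 were. In the BORIS list the corresponding shares were 43.2% (42.3 to 44.2) and 99.95% (99.89 to 99.98). The lists parted between these ends. In class 7, 95.3% (94.9 to 95.7) of empty-vector regions but 86.1% (85.5 to 86.8) of BORIS regions were called in the other line, and in class 8 the shares were 99.1% and 94.0%. The classes are ranks within lists of unlike strength, and class 7 spanned a −log10 q of 16.8 to 28.0 in empty-vector cells but 14.5 to 21.3 in BORIS cells, so a class number does not stand for the same strength in both. Above that level BORIS-only regions were few, with 94 in class 9 and 5 in class 10, and empty-vector-only regions fewer, with 3 and 0.

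Above a −log10 q of 2, the ratio of BORIS-only to empty-vector-only regions was higher in each band of significance, when each region was set against the whole list of the other line. With both lists limited to 10 or more, the ratio was 1.13, from 12270 and 10864 regions. At a −log10 q of 2 to 5, BORIS-only regions numbered 10672 against 9893 in empty-vector cells, 1.08 times as many (1.05 to 1.11). From 5 to 10 the numbers were 11671 and 8455, 1.38 times as many (1.34 to 1.42). From 10 to 20 they were 4401 and 2145, or 2.05 times (1.95 to 2.16). At 20 or more they were 860 and 313, or 2.75 times (2.41 to 3.14). Below a −log10 q of 2 the numbers were 410 and 337, or 1.22 times (1.05 to 1.41), so the ratio did not rise from the lowest band. The bands themselves differed in size between the lists. Of all regions from 2 to 5, 53.4% were one-line in BORIS cells and 53.2% in empty-vector cells, nearly the same share. These shares were 39.3% and 32.4% from 5 to 10, and 20.3% and 12.1% from 10 to 20. At 20 or more they were 2.60% and 0.879%, and below 2 they were 62.1% and 59.4%. The surplus was largest in number from 5 to 10, with 3216 regions or 46.8% of the whole, and from 10 to 20, with 2256 regions or 32.8%.

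The full lists did not shift in the same way. Counting all SMC3 regions, the BORIS list held 3937 more from 10 to 20. At 20 or more its number fell by 2591 relative to empty-vector cells, to 33017 from 35608. The BORIS cells thus had more SMC3 regions of middling significance and fewer of the highest. A −log10 p of 300 or more was reached by 44 regions in BORIS cells and 233 in empty-vector cells.

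**Figure D1:**
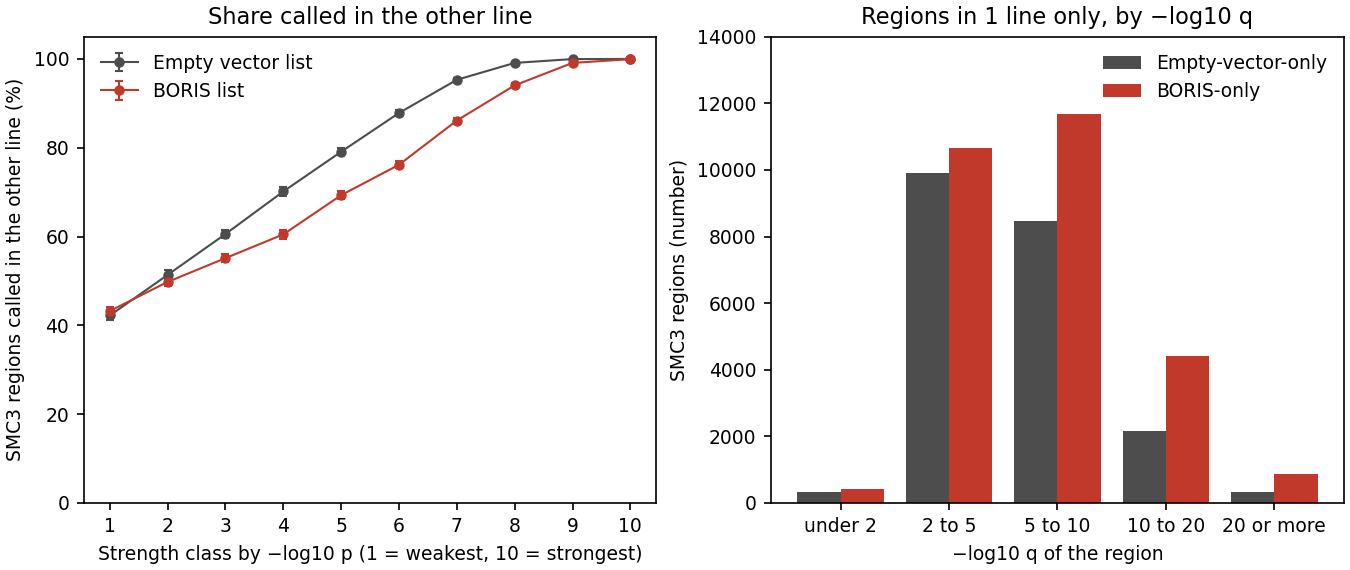
SMC3 regions called in 1 or both lines, by significance. Left, the share of each of 10 strength classes of a list (x axis, weakest to strongest by −log10 p) called in the other line (y axis, %), with 95% exact binomial intervals; both lists start near 43% and end at 99.95% or more, and the BORIS list runs below the empty-vector list in between, 86.1% against 95.3% in class 7. Right, the number of regions (y axis) called in empty-vector cells only and in BORIS cells only in each band of −log10 q (x axis); the bars are close from 2 to 5 (9893 and 10672) and apart from 10 to 20 (2145 and 4401).

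SMC3 regions confined to 1 line were narrow and weak. The median width was 157 bp for BORIS-only regions and 151 bp for empty-vector-only regions, against 275 bp and 266 bp for the regions of each list called in both lines. The narrowest region of a list was 123 bp in BORIS cells and 117 bp in empty-vector cells, and this floor sets the lower end of both distributions. Regions over 1 kb were almost entirely called in both lines, with 1359 such regions in BORIS cells and 1294 in empty-vector cells, of which 2 in each line were confined to it. Over the whole lists the median widths were 228 bp in BORIS cells and 229 bp in empty-vector cells.

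The height of the regions separated the classes in the same way. The fold over background that the authors deposited, in which the values fit 1 added to both pileup and background, had a median of 4.97 in the BORIS-only class and of 4.66 in the empty-vector-only class. In the regions called in both lines it was 8.06 and 8.53. The pileup at the summit had a median of 13 in both one-line classes, against 24 and 26 in the shared classes. The median −log10 q was 5.78 for BORIS-only and 5.09 for empty-vector-only regions. The fold of BORIS-only regions was thus slightly above that of empty-vector-only ones while their pileups had the same median. Their median widths differed by 6 bp, as much as the narrowest regions of the lists. The shared regions of the BORIS list had a lower fold and pileup than those of the empty-vector list.

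**Figure D2:**
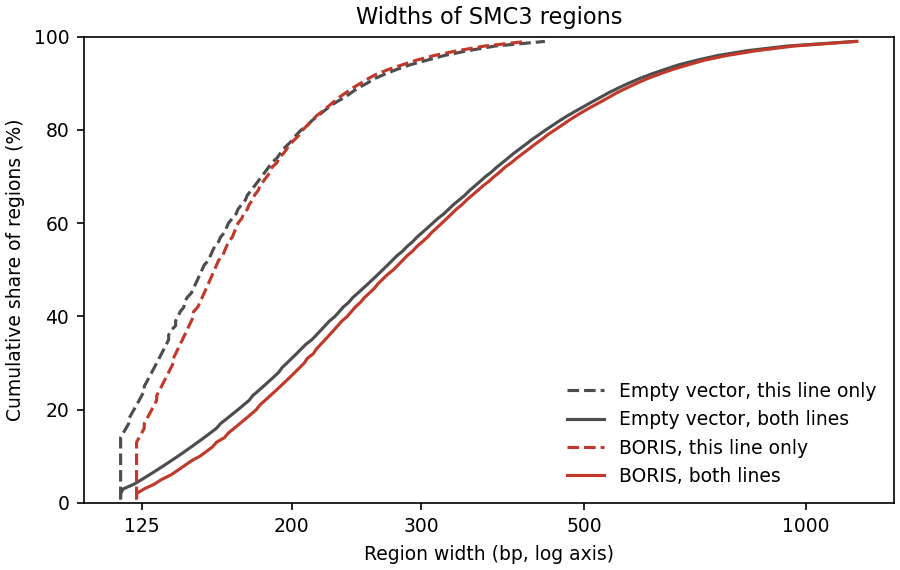
Cumulative share (y axis, %) of SMC3 regions up to a given width (x axis, bp, log axis), for regions called in 1 line only (dashed) and in both lines (solid) in empty-vector and BORIS cells. The dashed curves lie to the left, with medians of 151 and 157 bp, and the solid curves to the right, with medians of 266 and 275 bp; within each class the BORIS curve starts at 123 bp and the empty-vector curve at 117 bp.

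Where SMC3 was called in both lines, the summit stayed in place. Regions that overlapped exactly 1 region of the other line, which in turn overlapped no further one, formed 69743 pairs. The median absolute displacement of the summit between the lines was 17 bp, with quartiles of 7 and 35 bp, and 84.0% of pairs had summits within 50 bp of each other. The displacement had no preferred side, with 34157 summits to the right in BORIS cells, 34150 to the left and 1436 at the same base. Displacements of the same size separated SMC3 from its partners inside one line. In empty-vector cells the median was 17 bp from SMC3 to SMC1 and 16 bp from SMC3 to RAD21, and in BORIS cells 19 bp and 18 bp.

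Displacement shrank as regions became stronger. Over 5 classes of equal size, from the weakest to the strongest pairs, the medians were 37, 26, 19, 13 and 9 bp. Among the strongest 99.4% of summits lay within 50 bp, against 61.2% among the weakest. A displacement of over 200 bp was found in 1156 pairs (1.66%). Overlapping narrow regions can hardly have summits so far apart, so the number of such pairs is bounded by width. In 5 classes from a mean width under 200 bp to 1 kb or more, the median displacement was 22, 18, 14, 13 and 17.5 bp, and the 90th percentile 64, 71, 75, 103 and 329 bp. The far end of the displacements thus widened with width while the median had no single direction.

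**Figure D3:**
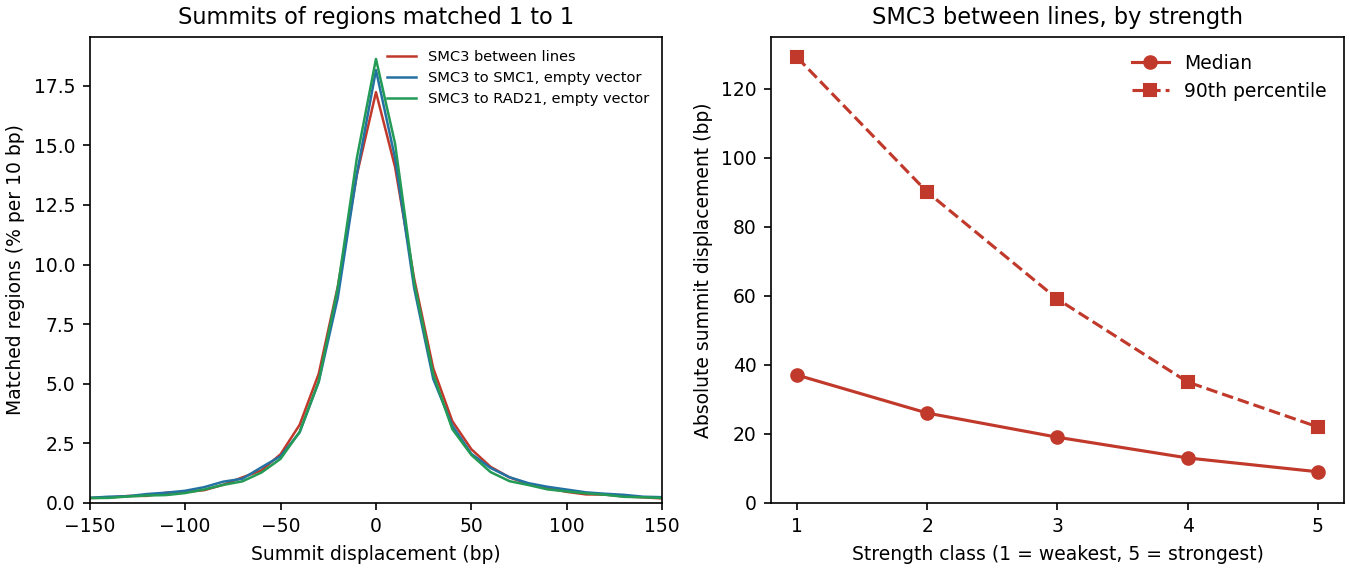
Summit displacement of SMC3 regions. Left, the share of regions matched 1 to 1 (y axis, % per 10 bp) at each displacement (x axis, bp) for SMC3 between the lines (red), and within empty-vector cells for SMC3 against SMC1 (blue) and RAD21 (green); the 3 curves nearly coincide and are symmetric about 0, with medians of the absolute displacement of 17, 17 and 16 bp. Right, the median and 90th percentile of the absolute displacement between the lines (y axis, bp) in 5 strength classes (x axis); the median falls from 37 to 9 bp.

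The matched regions were slightly wider in BORIS cells and had fewer fragments at the summit. The change in width from empty-vector to BORIS cells had a median of 8 bp, with quartiles of -46 and 63 bp. The BORIS region was wider in 54.3% of pairs and narrower in 45.2%. It was wider by a factor of at least 3/2 in 8793 pairs and narrower by that factor in 6192. The narrowest called region differed by 6 bp between the lists (123 and 117 bp), which moves with this change, and its part in the change was not tested. The pileup, a number of fragments not scaled for depth, could be compared in 69525 pairs. It was lower in BORIS cells in 64.2% of them and higher in 31.2%, and the median log2 ratio of BORIS to empty vector was -0.22 (interval -0.22 to -0.21), a linear ratio of 0.858. The ratio of implied depth was 0.938, and its part in the lower pileup was not separated. A change of at least 2-fold was found downward in 4163 pairs and upward in 1931.

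The pileup was lowest relative to empty-vector cells in the strong pairs. Over the same 5 classes the median log2 ratio was 0 in the weakest, then -0.06, -0.14 and -0.35, and -0.38 in the strongest. The weakest class holds regions that had to reach the calling threshold in both lists. The order of the pairs was largely kept, with a Spearman rho of 0.826 for −log10 p and 0.727 for width over the 69743 pairs, which share a genome and are not independent points.

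Single pairs show the range. The pair that ranked highest in both lists lay at chr19:43698379-43699018 in empty-vector cells, with a fold of 93.8, and at chr19:43698323-43698904 in BORIS cells, with a fold of 95.01, and its summits were 1 bp apart. The next lay on chromosome 1 (chr1:153411260-153412069 in empty-vector cells), with folds of 91.0 and 88.6 and summits 14 bp apart. Both pairs were high in both lines and kept their summits. The largest gain in width was on chromosome 6, from 492 bp at chr6:119058308-119058799 in empty-vector cells to 1602 bp at chr6:119057263-119058864 in BORIS cells. Its fold went from 6.05 to 7.47 and its summit moved by 17 bp. The 3 pairs with the largest loss lay on chromosomes 18, 14 and 4. The region on chromosome 18 went from 1293 bp to 284 bp and that on chromosome 4 from 1014 bp to 182 bp. The region on chromosome 14 went from 1078 bp at chr14:32482266-32483343 in empty-vector cells to 216 bp at chr14:32482523-32482738 in BORIS cells. Its pileup there went from 34 to 17 and its summit moved by 50 bp, beyond the upper quartile of all pairs. The largest displacement among strong pairs of at most 1 kb was 660 bp, at chr5:136409712-136410598 in empty-vector cells, where the region kept nearly its extent (887 bp and 968 bp) and the highest point changed.

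Splitting and joining of regions was rare and nearly balanced. In the BORIS list 2845 regions (2.71%) overlapped more than 1 empty-vector region, and in the empty-vector list 2467 (2.50%) overlapped more than 1 BORIS region. These regions were wide, with medians of 642 bp and 631 bp. Regions that were 1 of several under a wider region of the other line numbered 4439 in BORIS cells and 5251 in empty-vector cells.

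Neighbouring SMC3 summits lay closer in the BORIS list. The median spacing was 7292 bp in BORIS cells and 7748 bp in empty-vector cells. Spacings under 1 kb made up 15.5% and 15.7%, so close pairs were about as frequent in both lines. With both lists cut to 98604 regions by −log10 p the order turned, at 7876 bp in BORIS cells and 7748 bp in empty-vector cells. The share of regions confined to 1 line hardly varied with the distance to the nearest region of the same list. It lay between 26.1% and 29.2% over 6 classes of distance in BORIS cells and between 20.3% and 23.5% in empty-vector cells. The highest BORIS share, 29.2% (27.7 to 30.7), was that of regions with no neighbour within 50 kb, and the highest empty-vector share, 23.5% (22.9 to 24.0), that of regions with a neighbour within 500 bp.

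Most BORIS-only regions did not adjoin an SMC3 region of empty-vector cells. The gap to the nearest empty-vector SMC3 region had a median of 3556 bp. Of the BORIS-only regions, 10.8% lay within 200 bp of an empty-vector region and 27.7% within 1 kb. In empty-vector-only regions the median gap to the nearest BORIS region was 3112 bp, and 31.4% lay within 1 kb. Gaps of over 100 kb were found for 629 regions of the BORIS-only class and 260 of the empty-vector-only class.

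A region after a one-line region was more often one-line itself than a region after a shared one, although most one-line regions were followed by a shared region. In the BORIS list the next region was BORIS-only after 31.0% of BORIS-only regions and after 25.1% of shared regions. In the empty-vector list the values were 27.3% and 19.8%. Runs of 5 or more neighbouring regions confined to 1 line numbered 261 in BORIS cells and 171 in empty-vector cells. They held 5.68% of BORIS-only and 4.70% of empty-vector-only regions, and one-line regions made up 26.7% and 21.4% of the lists. The longest BORIS run held 19 regions over 717 kb at chr4:92285433-93002604, where 1 empty-vector region lay between them and 13 of the 19 sat on SMC1 or RAD21 regions of BORIS cells. The longest empty-vector run held 17 regions within 14.9 kb at chr7:77480633-77495501, with no BORIS region between them and 3 of the 17 on SMC1 or RAD21 regions of empty-vector cells. The highest fold in that run was 5.56. The second-ranked empty-vector run differed from it, with 12 regions over 62.3 kb at chr7:105630591-105692932 of which 11 sat on SMC1 or RAD21 regions of empty-vector cells. It was chosen after its values were seen.

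A majority of the BORIS-only SMC3 regions had a cohesin partner in the same cells. Of the 28014, 51.8% (51.2 to 52.3) overlapped an SMC1 region of BORIS cells, 30.9% (30.3 to 31.4) a RAD21 region of BORIS cells, 59.7% (59.1 to 60.2) at least one of these and 22.9% (22.5 to 23.4) both. Over all SMC3 regions of the BORIS list the share on SMC1 or RAD21 of BORIS cells was 83.9%, and over those called in both lines it was 92.7%. An SMC1 or RAD21 region of empty-vector cells was overlapped by 31.2% (30.6 to 31.7) of BORIS-only regions, against 76.9% of all BORIS SMC3 regions. BORIS-only regions were thus less often on a partner than the list as a whole, and more often on a partner of their own line than of the other.

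No partner region of either line was overlapped by 9062 BORIS-only regions, or 32.3% (31.8 to 32.9), against 10.2% of all BORIS SMC3 regions and 2.14% of those called in both lines. Empty-vector-only regions also lay on partners less often than their whole list, but more often than BORIS-only regions lay on theirs. On SMC1 or RAD21 of their own line lay 65.0% (64.3 to 65.6), against 87.3% of the whole empty-vector list. On none of the 4 partner lists lay 29.5% (28.9 to 30.1), against 8.04% of the whole list. Presence on a partner followed strength. In BORIS-only regions the share on SMC1 or RAD21 of BORIS cells rose from 41.8% in strength class 1 of the list to 95.6% in class 7. Over all BORIS SMC3 regions of these classes it rose from 54.3% to 98.6%, so the rise was that of the whole list. In empty-vector-only regions the share on partners of their own line was 51.7% in class 1 and 97.2% in class 7. Over all empty-vector SMC3 regions of these classes it was 60.9% and 99.6%.

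The difference of 6871 between the one-line classes was then divided by where the partners lay. Regions on a partner of their own line only numbered 10218 in the BORIS-only class and 7286 in the empty-vector-only class, which is 2932 more and 42.7% of the difference, at a ratio of 1.40 (1.36 to 1.45). Regions on no partner of either line numbered 9062 and 6241, which is 2821 more and 41.1% of the difference, at a ratio of 1.45 (1.41 to 1.50). Regions on a partner of the other line only numbered 2236 and 1168, 1068 more, at a ratio of 1.91 (1.78 to 2.06). Regions on partners of both lines numbered 6498 and 6448, a ratio of 1.008 (0.973 to 1.04). By number, most of the difference lay where a partner was called in the same line only or where none was called. It was 15.5% with a partner in the other line only, and 0.728% with partners in both lines. The first of these groups held 36.5% of BORIS-only and 34.5% of empty-vector-only regions, and the group with none 32.3% and 29.5%. Groups with partners in both lines held 23.2% and 30.5%. Over the whole lists, 12.9% and 11.3% had a partner of the same line only, and 10.2% and 8.04% had none.

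The division depended on the strength of the regions counted. A −log10 q of at least 10 was reached by 3329 of the 10218 such BORIS-only regions (32.6%) and by 1056 of the 7286 such empty-vector-only regions (14.5%). In the group with no partner it was reached by 508 regions (5.61%) in BORIS cells and 147 (2.36%) in empty-vector cells. With partners in both lines the numbers were 1323 (20.4%) and 1207 (18.7%), and with a partner in the other line only 101 (4.52%) and 48 (4.11%). At this limit the difference between the lines was thus mostly in regions on a partner of their own line only. Among empty-vector-only regions the share that reached the limit was higher with partners in both lines than with a partner in the same line only, and among BORIS-only regions it was lower. Regions on both SMC1 and RAD21 of their own line, with neither partner called in the other line, are positions where all 3 subunits were called in 1 line and none in the other. They numbered 3659 in BORIS cells, with a median fold of 6.91, and 2563 in empty-vector cells, with a median fold of 5.40. That was 13.1% of BORIS-only and 12.1% of empty-vector-only regions, at a ratio of 1.43 (1.36 to 1.50), beside 1.32 for all one-line regions. Over all SMC3 regions of the lists, partners of this kind were found at 5.04% in BORIS cells and 4.53% in empty-vector cells. The SMC1 and RAD21 lists were both shorter in BORIS cells as a whole. By chromosome, their ratios of BORIS-only to empty-vector-only regions ran from 0.240 and 0.202 on chromosome 14 to 2.03 and 2.34 on chromosome 4. The part of the partner lists in the longer BORIS-only class on BORIS partners was not tested.

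**Figure D4:**
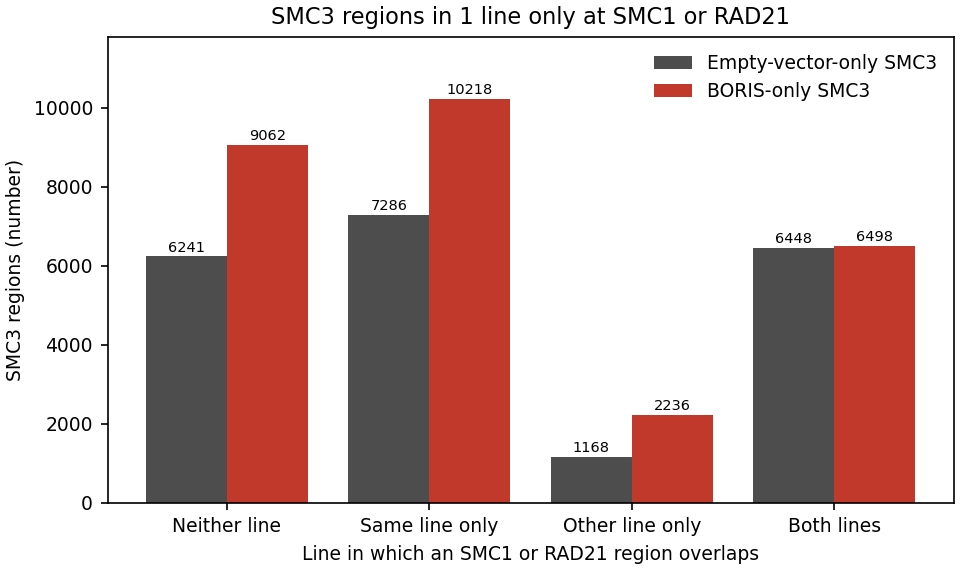
Number of SMC3 regions (y axis) called in empty-vector cells only (grey) and in BORIS cells only (red), by the line in which an SMC1 or RAD21 region overlaps them (x axis: neither line, the same line only, the other line only, both lines). BORIS-only regions are the more numerous with no partner (9062 against 6241) and with a partner of the same line only (10218 against 7286), and equal in number to within 50 regions with partners in both lines.

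The BORIS-only regions without a partner were narrow, with a median width of 140 bp and a median fold of 4.58, and most were not next to a partner either. The nearest of the 4 partner lists was 2175 bp away in the median, and 36.4% had a partner region within 1 kb. In empty-vector-only regions without a partner the median was 1708 bp and 41.5% lay within 1 kb. Where a BORIS-only region did overlap a partner of its line, the summits were close, at medians of 25 bp from SMC1 and 25 bp from RAD21, against 18 bp for both partners in the regions called in both lines. In empty-vector-only regions the medians were 34 bp and 27 bp.

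The strongest regions of each group give the scale. Among BORIS-only regions with SMC1 and RAD21 called in BORIS cells alone, the strongest was chr5:31103589-31103966, 378 bp wide with an SMC3 fold of 30.0 and a pileup of 73. The SMC1 fold there was 32.0 and the RAD21 fold 17.3 in BORIS cells, and the nearest SMC3 region of empty-vector cells was 4508 bp away. The next were chr1:173445192-173445617, with a fold of 13.9 and a pileup of 99, and chr2:104340268-104340526, with a fold of 26.8 and a pileup of 56. These 3 ranked above 92.8%, 90.7% and 89.5% of the BORIS list by −log10 p. The strongest empty-vector-only region of the mirror group was chr6:84528944-84529222, with a fold of 20.9 and a pileup of 50, which ranked above 80.2% of its list.

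At some BORIS-only SMC3 regions the partners were called in both lines at unequal height. At chr5:115657338-115657602 the SMC3 fold in BORIS cells was 29.1. The SMC1 fold was 22.1 in BORIS cells and 5.18 in empty-vector cells, and the RAD21 fold 12.3 and 5.34. At chr4:126483685-126483919 the SMC3 fold was 20.7, with SMC1 at 15.4 in BORIS and 4.35 in empty-vector cells and RAD21 at 12.0 and 8.50. At chr10:120837841-120838270 the SMC3 fold was 19.3, with SMC1 at 10.2 and 5.75 and RAD21 at 12.5 and 4.23. All 6 partner values were higher in the line in which SMC3 was called. The strongest empty-vector-only region of this kind, chr9:116975606-116975999, had an SMC3 fold of 26.6. SMC1 there was at 19.6 in empty-vector and 7.43 in BORIS cells, and RAD21 at 23.1 and 6.79. Folds of different libraries are set side by side here and are not on one calibrated scale.

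Without any partner the strongest BORIS-only regions were lower. These were chr12:112981054-112981215 with a fold of 11.8 and a pileup of 28, chr2:120547345-120547535 with a fold of 12.0 and a pileup of 27, and chr7:121491212-121491409 with a fold of 12.4 and a pileup of 24. They ranked above 72.7%, 72.4% and 71.5% of the list, and all were under 200 bp wide.

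The balance between the lines varied widely from chromosome to chromosome. The ratio of BORIS-only to empty-vector-only SMC3 regions ran from 0.401 (0.362 to 0.444) on chromosome 14 to 3.06 (2.84 to 3.30) on chromosome 4. Its interval lay above 1 on 13 of the 19 chromosomes, included 1 on chromosomes 3 and 6, and lay below 1 on 7, 8, 12 and 14. Chromosome 4 alone had 1928 more BORIS-only than empty-vector-only regions, followed by chromosome 11 with 1351 and chromosome 5 with 1302. The same difference was -801 on chromosome 14 and -723 on chromosome 8. In 1 Mb windows the largest surplus was chr4:133000001-134000000, where 98 regions were BORIS-only and 11 empty-vector-only. The largest deficit was chr14:26000001-27000000, with 7 and 60. Of 2389 windows, BORIS-only regions were the more numerous in 1372 and empty-vector-only regions in 806.

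The matched regions moved with the same chromosomes. The median log2 pileup ratio of BORIS to empty vector was -0.56 on chromosome 14 and 0 on chromosome 4, and the median change in width was -33 bp and 39 bp there. Over the 19 chromosomes the pileup ratio and the ratio of one-line regions had a Spearman rho of 0.914, with each point drawn from the same 2 libraries. The summit displacement varied little, with medians between 16 and 19 bp on all 19 chromosomes.

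SMC1 and RAD21 had a similar order of chromosomes, with a Spearman rho against the SMC3 ratio of 0.949 and 0.956 over the 19. Their ratios of BORIS-only to empty-vector-only regions ran from 0.240 and 0.202 on chromosome 14 to 2.03 and 2.34 on chromosome 4. The pattern along the chromosomes was therefore shared by the 3 antibodies, and the surplus of SMC3 came on top of it. The SMC3 ratio was 1.48 to 2.04 times the SMC1 ratio and 1.31 to 1.99 times the RAD21 ratio on every one of the 19 chromosomes. What differs between these lines along the chromosomes was not tested.

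**Figure D5:**
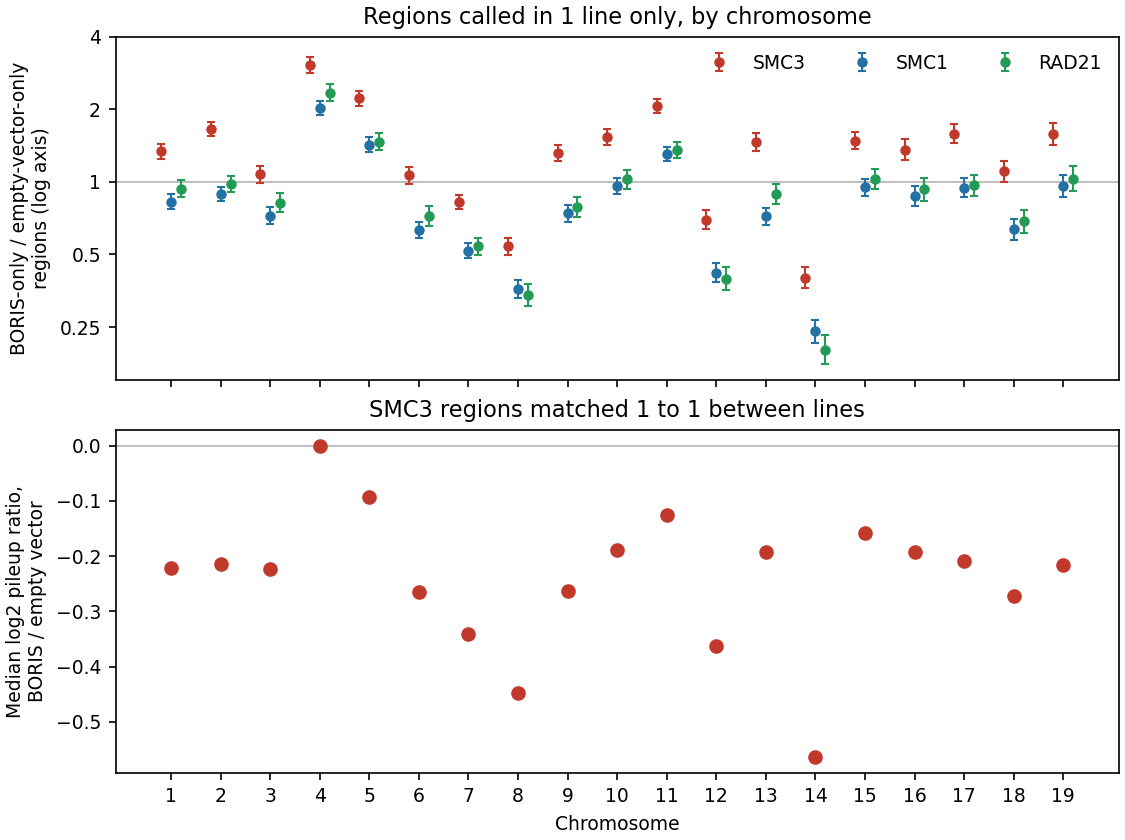
Balance between the lines by chromosome (x axis, 1 to 19). Top, the ratio of BORIS-only to empty-vector-only regions (y axis, log axis) with 95% intervals for SMC3, SMC1 and RAD21; SMC3 ranges from 0.401 on chromosome 14 to 3.06 on chromosome 4, and the other subunits follow it at lower values on every chromosome. Bottom, the median log2 ratio of SMC3 pileup, BORIS to empty vector (y axis), in regions matched 1 to 1, which is lowest on chromosome 14 (-0.56) and highest on chromosome 4 (0).

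The share of BORIS-only SMC3 regions on no partner of either line differed less between chromosomes, from 30.0% on chromosome 4 to 38.7% on chromosome 14. The ratio of one-line counts on a partner of their own line only ran from 0.262 on chromosome 14 to 4.77 on chromosome 4. That was wider than the range of the ratio over all one-line regions, 0.401 to 3.06. Without a partner it ran from 0.609 on chromosome 8 to 3.08 on chromosome 4. SMC3 regions without a partner thus varied along the chromosomes over a smaller range than those with a partner of their own line only.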

How the data were processed

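SMC3 ChIP-seq peak lists of empty-vector and BORIS NIH3T3 cells were analysed with the SMC1 and RAD21 lists of both lines, 6 lists in all and 1 library for each line and antibody. Groups were taken from the sample labels. The lists have the 10 columns of the narrowPeak layout. The submitters' processing notes name Bowtie2 version 2, Bowtie, SAMtools, MACS2 and deepTools 3.5.0, and the builds mm9 and hg19, with no roles. Positions on chromosome 1 reach 197182423, past the last gene end of GRCm38 (195291439), so the lists were read as mm9. The control, filters and pooling were not given in the sources used here. The authors deposited for each region a fold (a ratio that the values fit as summit pileup plus 1 over background rate plus 1, which lies below the plain ratio), the −log10 p and −log10 q of the summit, and a score, which is the −log10 q times 10 without its decimals except in 5 regions of the BORIS SMC3 list and 3 of the empty-vector SMC1 list. Each list holds regions at a q of 0.05 or less.

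Regions on X and Y (2104 in empty-vector and 2694 in BORIS cells) were left out of the comparison. Overlap means at least 1 bp. Displacement and width change were taken over regions matched 1 to 1. The pileup was recovered from the deposited fold and −log10 p as the whole number whose Poisson tail gives that p within 0.001, which held for 100% of summits with a −log10 p under 300. The lowest background rate divided by the narrowest region stood in for depth. Regions were named by rule: the 3 highest in −log10 p of each partner group, among one-line regions at most 3 kb wide and at least 1 kb from the other line, and the 3 strongest, most widened, most narrowed and most displaced pairs, of which the text gives those that carry its statements. The windows of 1 Mb with the largest difference and the longest runs were named as well. The members, lists and rules were chosen with earlier results of these data known. Alternatives were the significance of regions, equal list lengths, the overlap rule, joining within 1 kb, and the chromosomes used. The analysis used Python 3.11.15, numpy 2.4.6, pandas 2.3.3 and SciPy 1.17.1, and the overlap and pileup functions were tested on simulated data.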

Additional observations from a re-analysis of the deposited data

Results flagged for a closer look

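SMC3 regions on chromosome X, which the comparison leaves out, were also more numerous in BORIS cells, a signal in data outside the main measurement and above its level in the empty-vector control. The X chromosome held 2689 SMC3 regions in BORIS cells and 2101 in empty-vector cells. There 1000 regions were BORIS-only and 413 were empty-vector-only, 2.42 times as many (2.16 to 2.72) and a ratio above those of the autosomes except chromosome 4. On the same chromosome the ratio was 0.617 (0.552 to 0.689) for SMC1 and 0.860 (0.758 to 0.975) for RAD21. Of the 1000 BORIS-only regions on X, 50.5% (47.4 to 53.6) overlapped an SMC1 or RAD21 region of BORIS cells and 38.5% (35.5 to 41.6) overlapped none of the 4 partner lists. Over all 2689 SMC3 regions of BORIS cells on X these shares were 75.9% (74.3 to 77.5) and 15.4% (14.1 to 16.9). On the autosomes they were 59.7% and 32.3% of BORIS-only regions, and 83.9% and 10.2% of all BORIS SMC3 regions.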

How the results depend on the processing

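Of 56 alternatives to 12 results, 21 moved a share by less than its interval or a count by less than 1.5 times, and 35 moved further. A reversal could be recorded only for the ratio of one-line regions, because the other results are single positive values. The order of the spacings of the lines turned at equal list length. The ratio of BORIS-only to empty-vector-only SMC3 regions (1.32) stayed above 1 in all 9 settings. When both lists were limited to a −log10 q from 10 upward it was 1.13 (12270 and 10864 regions), and with that limit on the one-line region alone 2.14 (5261 and 2458). With 98604 regions in each list it was 1.04, where equal length makes the counts nearly equal by construction. It was 1.30 with 50% overlap of the shorter region, 1.27 with summits within 200 bp, 1.40 when regions within 1 kb of the other line's were left out and 1.38 with regions within 1 kb joined. In the same order (both lists strong, one-line region strong, equal length, 50% overlap, summits, 1 kb, joined), the share of BORIS regions called in empty-vector cells was 77.6%, 90.4%, 75.4%, 71.8%, 70.5%, 80.7% and 76.6%, and 73.8% without chromosomes 4 and 14. In strong lists the median displacement was 13 bp and the median widths 317 bp (BORIS) and 316 bp (empty vector). At equal length the BORIS width was 236 bp and its spacing 7876 bp, longer than the 7748 bp of empty-vector cells, where the lists as deposited gave a shorter spacing in BORIS cells. After joining, the spacings were 10859 bp and 11649 bp. With all lists limited to a −log10 q from 10 upward, 56.1% of BORIS-only regions lay on BORIS partners, 23.5% on empty-vector partners and 37.8% on none. With that limit on the SMC3 region alone the shares were 88.4%, 27.1% and 9.66%, and with partners within 1 kb 73.8%, 49.8% and 20.6%. The share without a partner thus moved down or up with which lists the limit was set on. Each line had 1 library and the BORIS line is 1 clone, so differences between clones, libraries and BORIS expression cannot be told apart. No paired analysis was possible because each group had 1 sample.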
